A study of Mus musculus with 38 samples.

Results

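The genes examined here are the 10 core genes of MHC class I antigen presentation in the mouse: H2-K1, H2-D1, B2m, Tap1, Tap2, Tapbp, Psmb8, Psmb9, Psmb10 and Nlrc5. They were taken by name from the 55487 genes of 3 count tables, and all 10 were found and passed the filter on low counts in each of the 24 comparisons. RNA was sequenced from 38 libraries in 18 groups, of 2 libraries each except 2 groups with 3. The study asked how hypoxia, contact with glioma cells and a histone deacetylase inhibitor change expression in glioma-associated myeloid cells.

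In the first experiment, BV2, an immortalised mouse microglial line, and GL261, a mouse glioma line that here stably carried the pEGFP-N1 plasmid, were grown alone or together at 2 GL261 cells per BV2 cell. In the second, primary bone marrow-derived macrophages (BMDM) of WT mice were grown alone or with 1 GL261 cell per macrophage. Normoxia was 21% oxygen and hypoxia below 0.1% oxygen, for 16 hours. In the third, BV2 or BMDM were kept without glioma cells in normoxia with the solvent DMSO, in hypoxia with DMSO, or in hypoxia with 10 nM panobinostat, a broad histone deacetylase inhibitor; there was no normoxic panobinostat group. All cells were fixed in 3% glyoxal, and how the co-cultured cell types were separated is not given in the sources used here. In the first experiment the labels call the libraries biological replicates; elsewhere nothing says that they came from separate cultures or animals, so p-values then measure only the spread between libraries, which may be technical.

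MHC class I molecules display short peptides from a cell's own proteins to CD8 T cells. The peptides are cut by the proteasome, and 3 catalytic subunits induced by interferon, encoded by Psmb8, Psmb9 and Psmb10, replace standard ones to form the immunoproteasome. The Tap1 and Tap2 proteins form the transporter that carries peptides into the endoplasmic reticulum, where tapasin, the product of Tapbp, helps load them onto a heavy chain (H2-K1 or H2-D1) paired with beta-2-microglobulin (B2m). Nlrc5 is the transcriptional activator of class I genes, and acts with factors that bind the X and Y boxes of their promoters. In microglia and macrophages the pathway is strongly induced by interferon, and loss of class I expression is a known way for tumour cells to escape T cells.

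Of the genes 7 lie on chromosome 17, in the order Tapbp, H2-K1, Psmb9, Tap1, Psmb8, Tap2 and H2-D1 (GRCm38). H2-K1 spans chr17:33996017-34000347 on the minus strand and H2-D1 chr17:35262730-35267499 on the plus strand. Between them lie Psmb9 (chr17:34181987-34187764, minus strand), Tap1 (chr17:34187553-34197225), Psmb8 (chr17:34197721-34201454) and Tap2 (chr17:34203527-34216321), the last 3 on the plus strand, and Tapbp (chr17:33915899-33929292, plus strand) lies before H2-K1. B2m lies at chr2:122147686-122153083 on the plus strand. Psmb10 (chr8:105935735-105938444, minus strand) and Nlrc5 (chr8:94434356-94527272, plus strand) share chromosome 8. Tap1 and Psmb9 are transcribed away from each other, and the starts that RefSeq gives have 225 bases between them, while their exons in the annotation used for the overlaps extend past those starts and share 212 bases.

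The promoters of the heavy chains and of B2m are shown because the heavy chain RNAs moved together in the data and B2m, their partner protein, did not follow them in every cell type. The sequences are the 250 bases before the start in RefSeq (GRCm38.p6), which held a promoter for 8 of the 10 genes (for H2-K1 the first of the starts listed). Capitals mark matches on either strand to the NF-kappaB sequence GGGATTCCC, the interferon-response sequences GAANNGAAA and GAAANNGAA, TGACG (core of the X2 box) and CCAAT (Y box). The H2-K1 sequence is chr17:34000348-34000597 on the minus strand and that of B2m is chr2:122147437-122147686 on the plus strand; both lie before the annotated gene, apart from the last base of the B2m sequence.
H2-K1: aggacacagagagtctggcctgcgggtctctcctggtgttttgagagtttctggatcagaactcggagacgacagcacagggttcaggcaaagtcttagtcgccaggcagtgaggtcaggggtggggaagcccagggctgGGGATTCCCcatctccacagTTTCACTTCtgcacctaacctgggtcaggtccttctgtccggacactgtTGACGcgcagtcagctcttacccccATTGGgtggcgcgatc
B2m: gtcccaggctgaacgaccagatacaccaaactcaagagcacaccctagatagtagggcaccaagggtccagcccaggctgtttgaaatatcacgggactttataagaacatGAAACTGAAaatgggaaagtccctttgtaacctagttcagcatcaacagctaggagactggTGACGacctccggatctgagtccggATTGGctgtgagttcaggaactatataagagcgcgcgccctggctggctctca

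The stretch that holds the NF-kappaB and interferon-response matches is set side by side for the heavy chains, at chr17:34000429-34000457 (minus strand) for H2-K1 and chr17:35262924-35262952 (plus strand) for H2-D1. The H2-K1 stretch lies before the annotated gene. The H2-D1 stretch lies before the RefSeq start but inside the gene as annotated above. These 29-base stretches are identical at 28 bases.
H2-K1: GGGATTCCCcatctccacagTTTCACTTC
H2-D1: GGGATTCCCcatctcctcagTTTCACTTC
A local alignment of the 2 promoter windows of 250 bases covered 177 columns, gaps not counted. The identity was 91.0% over these columns only. GGGATTCCC was found in 99 of the 32851 promoters searched (0.301%), GAANNGAAA in 6.31%, GAAANNGAA in 7.13%, TGACG in 17.8% and CCAAT in 33.8%. No match in the H2-K1, H2-D1 and B2m promoters overlapped another. TGACG was also found before Tap1 and Psmb9, whose windows overlap. The hypoxia-response core ACGTG, held by 16.6% of promoters, matched the Psmb10 window at overlapping bases on both strands and was in none of the other 7. A match is a description of the sequence and says nothing about binding.

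Per kilobase of exon, B2m was the most abundant of the 10 RNAs in every group, followed by H2-D1, with H2-K1 next in every group of BV2 and BMDM. In these bulk libraries fewer cells of a type and less RNA per cell cannot be told apart. In normoxic BV2 grown alone, B2m stood at 1090 CPM (the count scaled to library size) per kilobase, H2-D1 at 396 and H2-K1 at 192, while Tapbp followed at 32.0 and Psmb9 was lowest at 5.27. BMDM had the same leading genes, with 1271 CPM per kilobase for B2m, 1099 for H2-D1 and 491 for H2-K1, and the lowest was Nlrc5 at 6.97. In GL261, B2m stood at 225, H2-D1 at 46.8, Tapbp at 28.9, Psmb10 at 28.5 and H2-K1 at only 19.5 CPM per kilobase, and Nlrc5 was lowest at 0.753.

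BV2 expressed far more of the heavy chains, B2m and Nlrc5 than GL261, when both grew alone in normoxia. H2-K1 stood at 525 and 602 CPM in the 2 BV2 libraries and at 49.5 and 55.8 CPM in the 2 GL261 libraries, on the scale common to both lines, a log2 difference of 3.42 ± 0.18 (SE). The log2 difference was 3.20 ± 0.22 for H2-D1, 2.40 ± 0.21 for B2m and 4.13 ± 0.25 for Nlrc5. Smaller differences in the same direction were seen for Psmb9 (1.68 ± 0.22), Psmb8 (0.90 ± 0.20) and Tap1 (0.77 ± 0.19). Tap2, a transporter subunit, went the other way, with 37.7 and 38.0 CPM in BV2 and 59.5 and 61.2 CPM in GL261 (log2 difference -0.67 ± 0.13). Tapbp and Psmb10 did not pass, with adjusted p = 0.224 and 0.356. In all, 8 of the 10 genes passed the edgeR test, 7 higher and 1 lower in BV2, where 73.2% of all genes tested did; 8 also passed when any library was left out. The median over all genes was -0.12 in this comparison, so the values stand above or below a slightly lowered centre.

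Between BV2 and BMDM the tested levels are those of the panobinostat experiment, in normoxia with DMSO. Nlrc5 was higher in BV2 (log2 difference 0.76 ± 0.26) and Psmb9 lower (-0.91 ± 0.33), with edgeR adjusted p of 0.0380 and 0.0462; these were 2 of 10 genes, where 44.2% of all genes passed. Both values missed the threshold when single libraries were left out: Nlrc5 without BV2 library 1 (adjusted p = 0.194) or BMDM library 2 (0.211), Psmb9 without any 1 of the 4 libraries (0.0821 to 0.186). With the replicate block 6 of the 10 genes passed in edgeR, all lower in BV2, where 7173 of 15955 genes did. Beside Psmb9 these were H2-K1 (-1.05, adjusted p = 0.0219), H2-D1 (-0.91, 0.0360), B2m (-0.87, 0.0427), Psmb8 (-0.98, 0.0140) and Psmb10 (-1.08, 0.00382). Nlrc5 did not pass with it (0.72, 0.0531). The block was set within each cell type, so this difference is taken at the level of library 1. These BMDM libraries carried high levels of fibroblast markers, described with the panobinostat results.

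**Figure D1:**
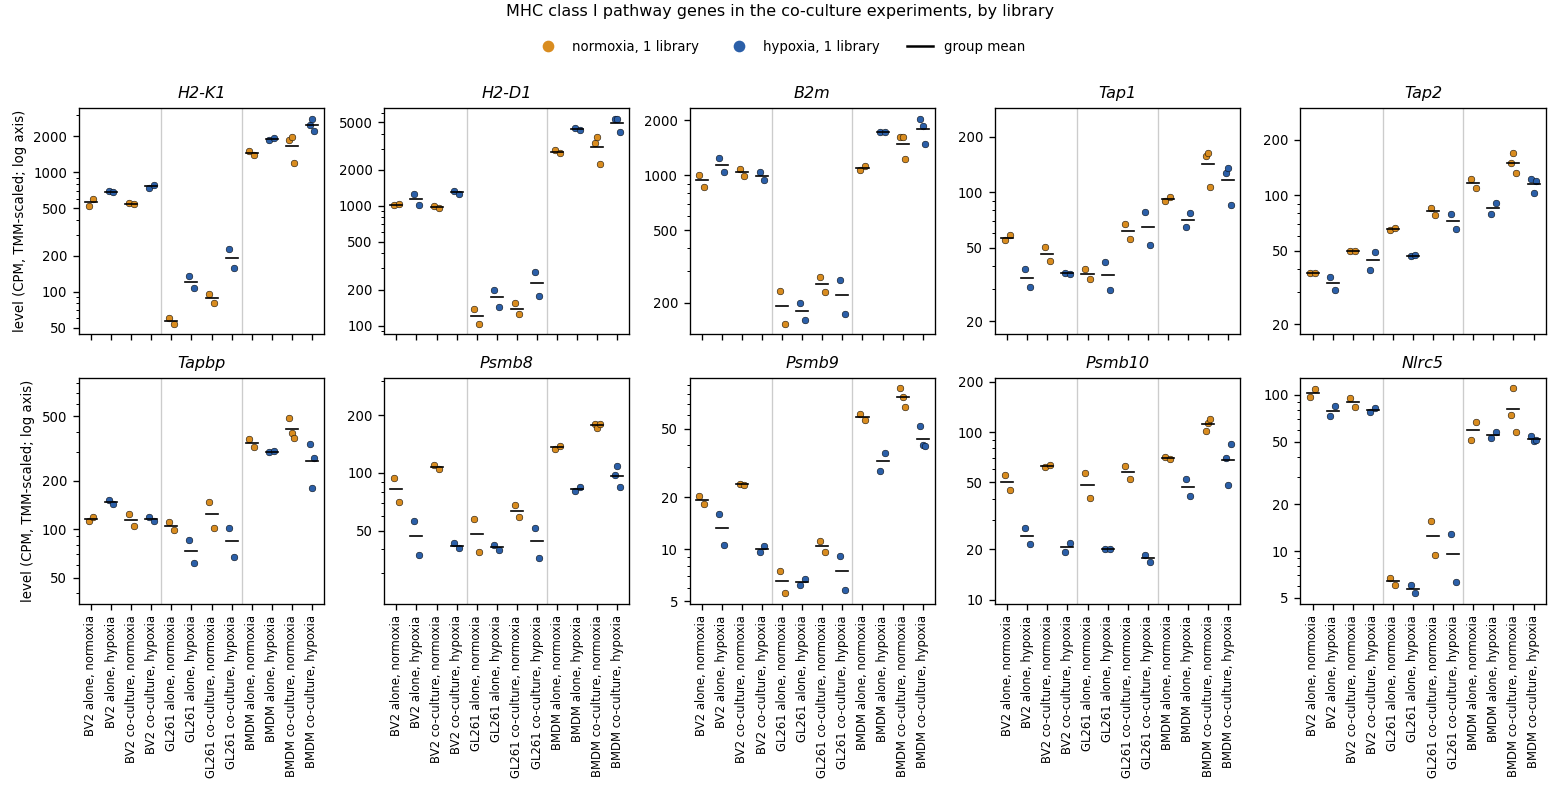
Level of each gene (CPM scaled by TMM within each cell type, log axis) in every library of the co-culture experiments, by group on the horizontal axis; points are libraries, bars are group means, and grey lines part the cell types, whose scales are not shared. H2-K1 in GL261 moved from 53.7 and 60.7 CPM in normoxia to 107 and 137 CPM in hypoxia, and the 4 hypoxic BV2 libraries of Psmb10 lay between 19.3 and 26.6 CPM, below the 4 normoxic ones.

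Hypoxia moved the parts of the pathway in different directions: wherever the test passed, the heavy chains were higher and the immunoproteasome subunits lower. Over the 8 comparisons of hypoxia with normoxia, H2-K1 passed as higher in 5 and as lower in none, and H2-D1 as higher in 3 and as lower in none. Psmb8 and Psmb10 passed as lower in 6 each and Psmb9 in 4, and none of these passed as higher in any. Psmb10 was lower in every hypoxic library than in every normoxic one in all 8 comparisons. How many of all genes separated in this way was not counted. This and later remarks on overlap therefore only describe the libraries. Genes passing among all genes tested ran from 0.483% in BMDM with DMSO to 67.3% in co-cultured BV2, and are given below for each. The 8 comparisons share no libraries. Canonical hypoxia-response genes rose in the same libraries: 6 of the 6 tested in BV2 alone (median log2 change 3.97), 6 of 7 in GL261 alone (3.41) and 7 of 7 in BMDM alone (4.95).

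In BV2 grown alone, 2 of the 10 genes were higher and 5 lower in hypoxia by the edgeR test, where 61.9% of all genes passed (30.9% higher, 31.0% lower), so the share of changed genes was near that of the whole transcriptome. Psmb10, the immunoproteasome subunit with trypsin-like activity, fell from 55.7 and 44.9 CPM to 26.6 and 21.6 CPM (log2 change -1.06 ± 0.14, adjusted p = 5.93e-06). Psmb8, the chymotrypsin-like subunit, fell from 94.7 and 70.6 to 56.6 and 37.6 CPM (-0.81 ± 0.17). In neither gene did the groups overlap. Tap1 fell from 55.3 and 58.5 to 38.3 and 30.7 CPM (-0.72 ± 0.13). Psmb9 (-0.54 ± 0.17) and the activator Nlrc5 (-0.39 ± 0.12) also fell, and H2-K1 (0.29 ± 0.11) and Tapbp (0.34 ± 0.11) rose. These last 4 calls were lost without single libraries. The adjusted p was 0.0686 for Psmb9, 0.274 for H2-K1 and 0.0995 for Tapbp without normoxic library 1, and 0.0907 for Nlrc5 without normoxic library 2. It was 0.145 for Nlrc5, 0.0773 for H2-K1 and 0.0716 for Tapbp without hypoxic library 1, and 0.225 for Psmb9 and 0.0712 for H2-K1 without hypoxic library 2. B2m (0.29 ± 0.13), H2-D1 (0.15 ± 0.12) and Tap2 (-0.18 ± 0.13) did not pass.

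In BV2 from co-culture, 2 genes were higher and 4 lower in hypoxia, where 67.3% of all genes passed (35.2% higher, 32.1% lower). The fall of the immunoproteasome was seen again, now with all 3 subunits below -1 on the log2 scale. Psmb10 went from 61.9 and 63.9 CPM to 19.3 and 21.9 CPM (-1.61 ± 0.14), Psmb8 from 110 and 104 to 43.0 and 40.7 CPM (-1.35 ± 0.17), and Psmb9 from 24.0 and 23.6 to 9.63 and 10.5 CPM (-1.24 ± 0.17). H2-K1 rose from 550 and 541 to 739 and 785 CPM (0.48 ± 0.11) and H2-D1 from 1002 and 961 to 1340 and 1246 CPM (0.40 ± 0.12), with no overlap between the groups. Tap1 fell (-0.35 ± 0.13, adjusted p = 0.0284), but not past the threshold without normoxic library 1 (adjusted p = 0.252); H2-D1 missed it without hypoxic library 1 (0.124) or normoxic library 2 (0.0588). B2m, Tap2, Tapbp and Nlrc5 did not pass, with log2 changes from -0.17 to 0.01. The difference between the hypoxia effects in co-culture and alone was tested for each gene: 0 of 10 passed in edgeR (2.19% of all genes did), 0 in DESeq2, and 3 had an unadjusted p under 0.05, namely Psmb8, Psmb9 and Psmb10, with differences of -0.54, -0.70 and -0.55.

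H2-K1 rose in hypoxic GL261 in both cultures. In cells grown alone it went from 60.7 and 53.7 CPM to 137 and 107 CPM (log2 change 1.09 ± 0.19, adjusted p = 0.000833), and in co-culture from 96.5 and 80.2 to 226 and 157 CPM (1.11 ± 0.19, adjusted p = 0.000481). H2-D1 rose in co-culture (0.72 ± 0.23), where it missed the threshold without hypoxic library 1 (adjusted p = 0.244) or normoxic library 2 (0.125), and did not pass alone (0.51 ± 0.23, adjusted p = 0.0961). Their partner B2m changed by -0.10 ± 0.23 alone and -0.20 ± 0.23 in co-culture, with overlapping libraries. The hypoxic GL261 libraries still held less H2-K1 than any BV2 library: at most 211 CPM against at least 525 CPM on the common scale.

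Psmb10 fell in GL261 from 56.9 and 40.3 CPM to 20.1 and 19.97 CPM when grown alone (-1.28 ± 0.18) and from 63.0 and 52.4 to 18.5 and 16.7 CPM in co-culture (-1.71 ± 0.18). Psmb8 changed by -0.23 ± 0.20 alone and fell by 0.53 in co-culture (adjusted p = 0.0442; 0.227, 0.0756 and 0.329 without normoxic library 1, normoxic library 2 and hypoxic library 2), and Psmb9 changed by -0.02 ± 0.25 and -0.49 ± 0.25 and did not pass. Tap2 fell in GL261 alone, from 64.8 and 66.4 to 46.8 and 47.3 CPM (-0.48 ± 0.13, adjusted p = 0.0111), but not past the threshold without hypoxic library 1 (0.0561) or normoxic library 2 (0.0554). In all, 1 gene was higher and 2 lower alone, where 44.6% of all genes passed (23.2% higher, 21.4% lower), and 2 were higher and 2 lower in co-culture, where 52.4% passed (26.8% higher, 25.6% lower). Nlrc5, which was low in GL261 at 5.35 to 6.70 CPM in the libraries grown alone, did not pass in either. The hypoxia effects in co-culture and alone did not differ in a way that passed for any member (0 of 10 in edgeR, 0 in DESeq2, 0 with an unadjusted p under 0.05; 0% of all genes passed).

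The response of 2 genes differed between the lines, tested as an interaction between cell line and oxygen in cells grown alone (37.4% of all genes passed). H2-K1 rose more in GL261 than in BV2 (difference, BV2 minus GL261, -0.70 ± 0.23, adjusted p = 0.0211). Tapbp went up in BV2, from 113 and 119 to 152 and 142 CPM, and had lower values in hypoxic GL261, from 111 and 98.2 to 85.7 and 61.3 CPM (difference 0.95 ± 0.27, adjusted p = 0.00942). The median difference over all genes was 0.15, so relative to it the H2-K1 value is larger and the Tapbp value smaller. For H2-K1 the adjusted p was 0.0668 without hypoxic GL261 library 1, 0.0546 without normoxic BV2 library 2, and 0.0563 and 0.0556 without hypoxic BV2 library 1 and 2. For Tapbp it was 0.0571 without normoxic GL261 library 1 and 0.0832 without hypoxic GL261 library 2. The other 8 genes, among them Psmb10 (0.32 ± 0.23), did not pass.

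In BMDM grown alone, 1 gene was higher and 2 lower in hypoxia, where 23.9% of all genes passed (13.3% higher, 10.6% lower). B2m rose from 1067 and 1118 CPM to 1723 and 1726 CPM (0.66 ± 0.20, adjusted p = 0.0332). Psmb8 fell from 133 and 138 to 80.2 and 84.4 CPM (-0.72 ± 0.15) and Psmb9 from 60.8 and 56.4 to 28.6 and 36.1 CPM (-0.86 ± 0.19). None of these groups overlapped, but each call was lost when 1 library was left out: B2m without any 1 of the 4 (adjusted p 0.151 to 0.214), Psmb8 without hypoxic library 1 (0.0646) or 2 (0.0536), and Psmb9 without hypoxic library 1 (0.0815). H2-D1 stood at 4432 and 4277 CPM in hypoxia against 2921 and 2747 in normoxia without passing (0.62 ± 0.24, adjusted p = 0.0789), and Psmb10 likewise was not called (-0.57 ± 0.23, adjusted p = 0.101).

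With 3 libraries a group, BMDM from co-culture gave 2 genes higher and 6 lower in hypoxia, where 34.8% of all genes passed (17.5% higher, 17.3% lower). Psmb8 fell from 179, 171 and 181 CPM to 97.8, 109 and 84.6 CPM (-0.87 ± 0.12), Psmb9 from 86.2, 76.3 and 66.5 to 51.6, 40.3 and 39.5 CPM (-0.80 ± 0.15), and Psmb10 from 101, 113 and 119 to 70.1, 48.1 and 84.8 CPM (-0.72 ± 0.19). All hypoxic values of these 3 genes lay below all normoxic ones. H2-K1 rose from 1856, 1959 and 1197 to 2472, 2805 and 2218 CPM (0.58 ± 0.18) and H2-D1 from 3342, 3735 and 2224 to 5332, 5327 and 4103 CPM (0.67 ± 0.19). Tapbp (-0.65 ± 0.21), Nlrc5 (-0.64 ± 0.21) and Tap2 (-0.39 ± 0.14) fell.

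The 3 immunoproteasome calls in co-cultured BMDM held under all alternatives tried, and the other 5 did not. Without hypoxic library 1 the adjusted p was 0.0506 for H2-K1, 0.0503 for H2-D1, 0.0522 for Nlrc5 and 0.0510 for Tap2, and without hypoxic library 2 it was 0.0867, 0.0527, 0.0686 and 0.0940. Without hypoxic library 3 it was 0.0795 for Nlrc5 and 0.0682 for Tap2. Of the normoxic libraries, leaving out library 1 gave 0.0890 for Tapbp and 0.0756 for Tap2, library 2 gave 0.116 for Nlrc5 and 0.120 for Tap2, and library 3 gave 0.0710 for H2-K1. Library 3 of each co-culture group carried the largest share of GL261 transcripts, up to 3.70% in normoxia and 6.28% in hypoxia; without both, Tapbp had an adjusted p of 0.0613. The hypoxia effects alone and in co-culture did not differ in a way that passed for any member (0 of 10 in edgeR, 0 in DESeq2, 0 with an unadjusted p under 0.05; 0% of all genes passed).

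In BV2 with DMSO, both transporter genes fell in hypoxia, and no gene passed as higher. Tap1 stood at 132 and 58.3 CPM in normoxia and 28.8 and 35.5 CPM in hypoxia (-1.57 ± 0.34, adjusted p = 0.00569), and Tap2 at 115 and 58.5 against 37.3 and 35.9 CPM (-1.25 ± 0.29, adjusted p = 0.00822). The normoxic libraries differed widely from each other in both genes, yet neither overlapped with hypoxia. Without normoxic library 1 the changes were -0.83 for Tap1 (adjusted p = 0.0243) and -0.65 for Tap2 (adjusted p = 0.0365), and both still passed. Psmb10 (-1.09 ± 0.29), Nlrc5 (-0.74 ± 0.22) and Psmb8 (-0.63 ± 0.22) fell too. In all 5 of 10 genes were lower, where 37.5% of all genes passed (17.2% higher, 20.2% lower). With the replicate block Psmb9 passed as well (-0.77, adjusted p = 0.0115, against 0.102 without it). H2-K1 was at 964 and 617 CPM in normoxia and 741 and 678 CPM in hypoxia and did not pass (-0.16 ± 0.27). Left-out libraries ended 3 of the calls: without hypoxic library 1 the adjusted p was 0.0975 for Psmb10, 0.061 for Nlrc5 and 0.345 for Psmb8. It was 0.0997 for Psmb10 and 0.0924 for Psmb8 without normoxic library 2, 0.113 for Nlrc5 and 0.116 for Psmb8 without normoxic library 1, and 0.109 for Nlrc5 without hypoxic library 2.

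In BMDM with DMSO none of the 10 genes passed in edgeR, where 0.483% of all genes did; 4 had an unadjusted p under 0.05 and 3 passed in DESeq2. The values leaned the same way as in the other experiments for the immunoproteasome: Psmb8 had 133 and 84.3 CPM in normoxia and 65.8 and 40.4 CPM in hypoxia (-1.03 ± 0.34), and Psmb9 and Psmb10 had log2 changes of -1.06 and -0.99. Tapbp had 552 and 430 CPM in normoxia and 117 and 199 CPM in hypoxia (-1.64 ± 0.56, adjusted p = 0.150). With the replicate block Tap2 (-1.13, adjusted p = 0.0331), Psmb8 (-1.04, 0.0478) and Psmb10 (-0.99, 0.0325) passed as lower, and genes passing among all genes went from 72 to 2127. The hypoxia effect did not differ between BV2 and BMDM in a way that passed for any member (0 of 10 in edgeR and in DESeq2, 0 with an unadjusted p under 0.05; 0.664% of all genes passed).

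**Figure D2:**
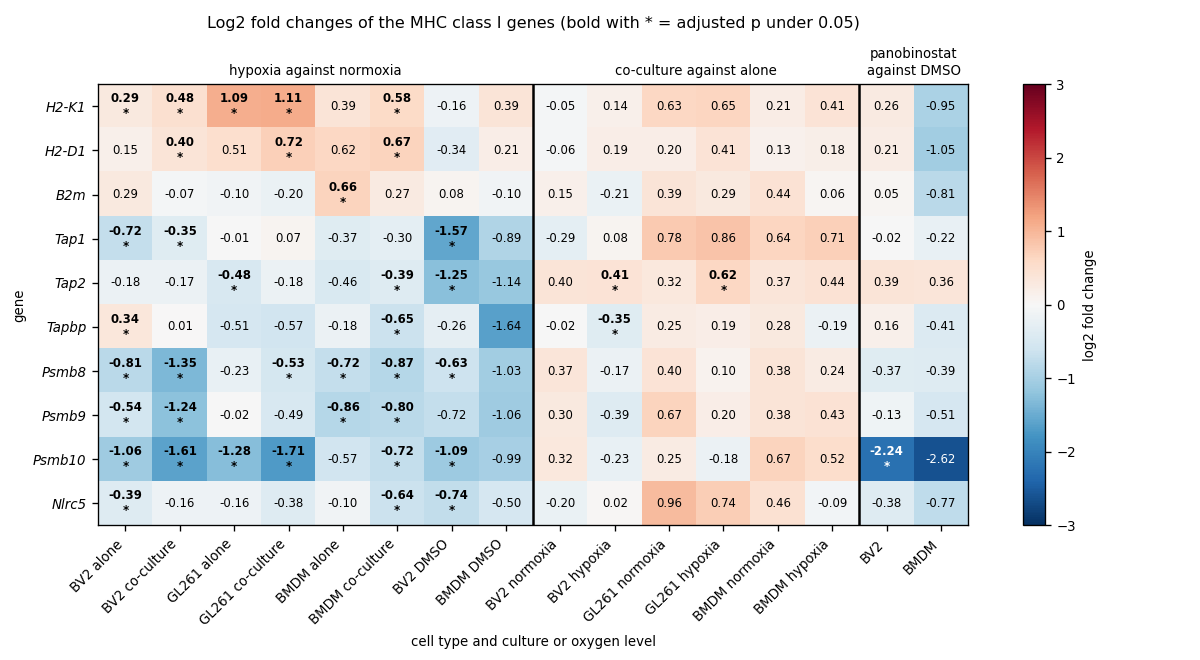
Log2 fold change of each gene (rows) in 16 comparisons of 2 groups (columns), with the colour scale at right; values in bold with an asterisk passed at an adjusted p under 0.05 in edgeR's quasi-likelihood test. H2-K1 and H2-D1 were above 0 in 7 of the 8 hypoxia comparisons each, and Psmb8, Psmb9 and Psmb10 were below 0 in all 8.

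The immunoproteasome subunits replace standard catalytic subunits, Psmb8 in the place of Psmb5, Psmb9 of Psmb6 and Psmb10 of Psmb7. In the first experiment most of the standard core fell in hypoxia in both cell lines. Of the 15 standard core genes, 14 were lower and 1 higher in hypoxic BV2 grown alone, where 31.0% of all genes were lower and 30.9% higher. The median log2 change there was -0.88, against 0 over all genes. In BV2 from co-culture 14 were lower, where 32.1% of all genes were. In GL261 9 were lower alone and 15 in co-culture, where 21.4% and 25.6% of all genes were. In BMDM from co-culture 2 were lower, where 17.3% of all genes were. The BMDM median was -0.19 alone and -0.28 in co-culture, and Psmb8 and Psmb9 fell in both cultures. Psmb6 was the exception in BV2, where it rose alone (0.41 ± 0.12) and with DMSO (0.75 ± 0.23) while Psmb9 had log2 changes of -0.54 and -0.72. In BV2 alone the changes of Psmb10 and Psmb7 were alike in size, at -1.06 and -1.08. They were further apart in BV2 from co-culture, at -1.61 and -1.02, and in BV2 with DMSO, at -1.09 and -0.50. In GL261 Psmb10 changed by -1.28 alone and -1.71 in co-culture beside -0.31 and -0.68 for Psmb7. The differences between paired subunits were not tested.

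**Figure D3:**
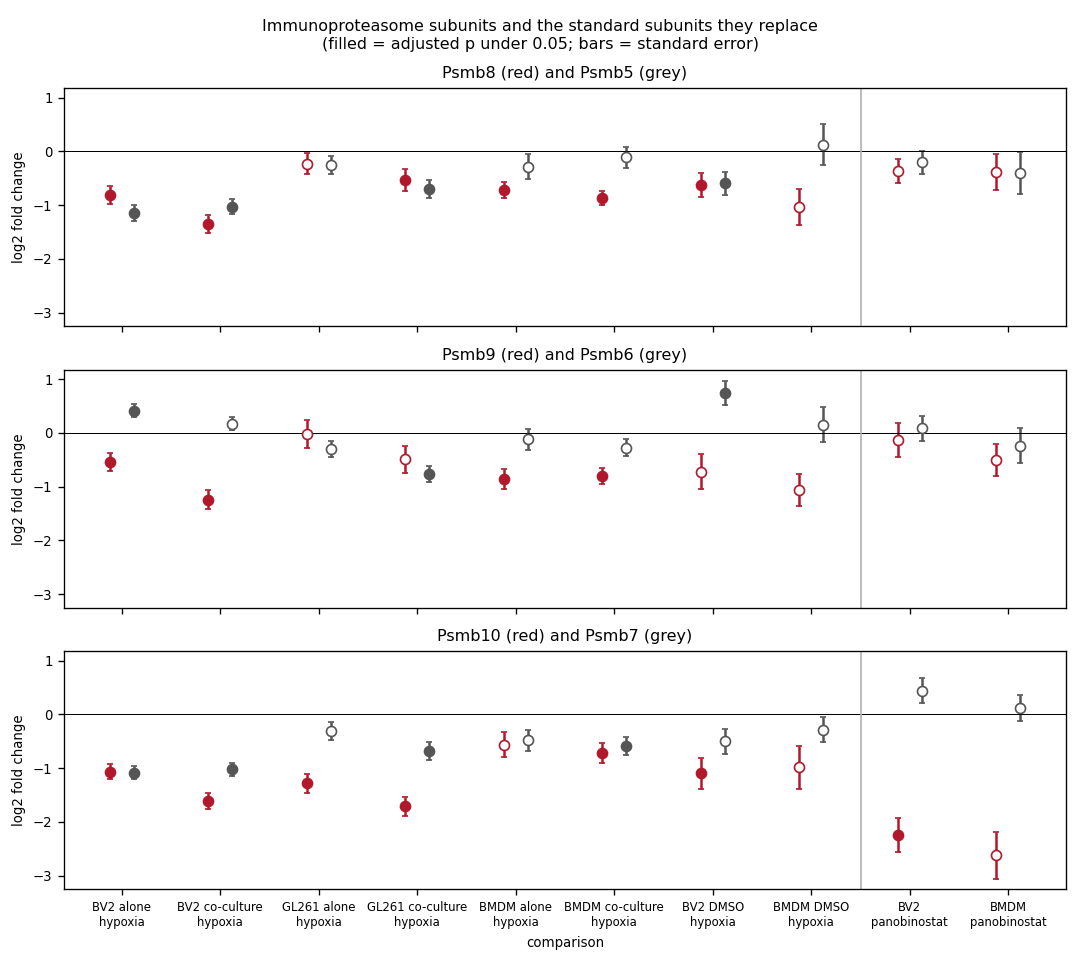
Log2 fold change with its standard error for each immunoproteasome subunit (red) and the standard subunit it replaces (grey), over 8 hypoxia and 2 panobinostat comparisons on the horizontal axis; filled points passed at an adjusted p under 0.05. Psmb10 had its lowest values with panobinostat, -2.24 in BV2 and -2.62 in BMDM, where Psmb7 stood at 0.44 and 0.12.

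Other parts of the class I route were read from lists of related genes. Chaperones and peptidases of loading and trimming (7 genes) were one such list. In hypoxia 4 rose and 1 fell in BV2 alone, where 61.9% of all genes passed, and 5 rose and 1 fell in BMDM alone, where 23.9% passed. In BV2 with DMSO 1 rose and 1 fell, where 37.5% passed. Pdia3, a thiol oxidoreductase of the loading complex, rose in BV2 alone (1.07 ± 0.16) and in BMDM alone (1.22 ± 0.27), and Calr, the chaperone calreticulin, rose by 0.92 and 0.94. The falling gene was in both Erap1, the aminopeptidase that trims peptides in the endoplasmic reticulum, with log2 changes of -1.99 in BV2 and -0.88 in BMDM. In GL261 alone Pdia3 (0.06), Calr (-0.14) and Erap1 (-0.42) did not pass. The proteasome activator genes Psme1 and Psme2, which are interferon-induced, fell in BV2 alone (-0.35 and -0.99) and GL261 alone (-0.95 and -0.71), and Psme2 fell in BMDM alone (-0.60).

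The other class I genes were called about as often as all genes in BV2 alone. There 3 of the 10 tested rose in hypoxia and 3 fell, against 30.9% of all genes higher and 31.0% lower: Mr1, which presents microbial vitamin metabolites, rose by 1.85 on the log2 scale, H2-T23, the mouse Qa-1 molecule, by 1.53, and H2-M3 by 0.88, while H2-T10, H2-Q7 and H2-Q6 fell. In GL261 alone 3 of 9 rose and 3 fell, where 44.6% of all genes passed (23.2% higher, 21.4% lower), and H2-T23 was among those that fell (-1.30 ± 0.27) while H2-Q4 rose (1.22 ± 0.24). The H2-Q and H2-T genes share stretches of sequence with close relatives (17.9% of the 75-base words of H2-Q6, for instance), so reads may be split among them and these values are uncertain. The same share was 3.10% for H2-K1, 5.40% for H2-D1 and 1.10% for Tapbp, and 0 for the other 7 genes. Tap1 and Psmb9 overlap by 212 exonic bases on opposite strands, 3.87% and 5.79% of their exonic lengths. The largest overlaps of members were also on opposite strands. They covered 24.9% of Tapbp (with Gm19412), 14.7% of Psmb8 (with Gm20496) and 14.1% of Tap2 (with Gm15821). Tapbp also shares 4.11% with Zbtb22 on the same strand. The kit marks strand, but whether the counting used it is not given in the sources used here.

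The regulators did not all move with Nlrc5. Irf1, a transcription factor of the interferon-response sequence, rose in GL261 alone from a mean of 84.3 to 275 CPM (1.70 ± 0.17) and in BV2 alone (0.48 ± 0.12), a difference between the lines of -1.13 (BV2 minus GL261, adjusted p = 0.000436), and was at -0.49 in BMDM alone without passing. Rfx5, which binds the X box, rose in BV2 alone (1.07) and GL261 alone (0.65). Of the interferon-induced list, 14 of 21 genes fell and 0 rose in BMDM from co-culture (median -0.98, against 0.03 over all genes), where 17.3% of all genes were lower. In BV2 from co-culture genes of this list passed in both directions, where 67.3% of all genes passed. Cxcl10 and Rsad2 were among those that rose, and Igtp and Irgm1 among those that fell. In BV2 with DMSO 11 of 17 fell and 0 rose (median -1.65, against -0.03), where 20.2% of all genes were lower. The list's summed level there was 255 and 651 CPM in the normoxic libraries, far apart from each other, and at most 156 CPM in the hypoxic ones. In GL261 alone 3 of 22 rose and 4 fell, where 44.6% of all genes passed.

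Few of the 10 genes passed between co-culture and cells grown alone. In BV2, 0 of 10 passed in normoxia in edgeR (14.9% of all genes did; 4 had an unadjusted p under 0.05 and 1 passed in DESeq2). In hypoxia 1 was higher, Tap2 (0.41 ± 0.13, adjusted p = 0.0436), and 1 lower, Tapbp (-0.35 ± 0.11, adjusted p = 0.0458), where 15.7% of all genes passed (8.13% higher, 7.57% lower). Both lost the call without hypoxic library 1 of the cells grown alone (0.0761 and 0.109) or hypoxic co-culture library 2 (0.472 and 0.112), and Tap2 also without hypoxic library 2 of the cells grown alone (0.392).

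In GL261, the median log2 difference of the 10 genes between co-culture and cells alone was 0.39 in normoxia and 0.35 in hypoxia. The median over all genes, in the fit with the replicate block, was -0.0002 and -0.0018. The 10 genes were not tested as a set. None of them passed in normoxia in edgeR, where 0.514% of all genes did. There 5 had an unadjusted p under 0.05 and 1 passed in DESeq2. Only Tap2 passed in hypoxia (0.62 ± 0.13, edgeR adjusted p = 0.0449), where 1.39% of all genes passed (0.889% higher, 0.5% lower). Tap2 went from 46.8 and 47.3 CPM alone to 79.0 and 65.3 CPM in co-culture, and missed the threshold without any 1 of these 4 libraries (adjusted p 0.0551 to 0.243). Tap1 stood at 67.6 and 56.1 CPM in normoxic co-culture against 38.4 and 33.8 CPM alone (0.78 ± 0.21, adjusted p = 0.213), and at 78.6 and 51.6 against 41.8 and 29.7 CPM in hypoxia (0.86 ± 0.21, adjusted p = 0.0795). H2-K1 had 96.5 and 80.2 CPM against 60.7 and 53.7 CPM in normoxia (0.63 ± 0.19, adjusted p = 0.282). Nlrc5 had 15.5 and 9.46 CPM against 6.70 and 6.08 CPM (0.96 ± 0.32, adjusted p = 0.381). With the replicate block in edgeR, H2-K1 (0.62, adjusted p = 0.0260) and Tap1 (0.77, 0.0108) passed in normoxia, where 226 of 15189 genes did. Both also passed with it in hypoxia (0.64, 0.0114 and 0.86, 0.00382), where 654 genes did. Same-numbered GL261 libraries did not meet the check for pairing in every pair of groups (r 0.0333 to 0.521). In the hypoxic co-culture 6 of 22 interferon-induced genes were higher and 0 lower, Ifit3 among the higher ones (1.74).

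BV2 transcripts made up 0.630% to 0.915% of the normoxic and 0.218% to 0.256% of the hypoxic co-cultured GL261 libraries, and at most 0.0615% of those of GL261 alone. At these shares BV2 RNA would give at most 6.90% of the Nlrc5, 6.15% of the H2-D1, 5.41% of the H2-K1 and 3.14% of the B2m level of a co-cultured GL261 library, and less of the other 6 genes. The 10 myeloid markers summed to 3.15 to 4.20 CPM in normoxic GL261 alone and 23.9 to 33.1 CPM in normoxic co-culture, with Aif1 at 0 in all GL261 groups; in hypoxia they summed to 1.91 to 2.00 CPM alone and 7.28 to 10.8 CPM in co-culture. BV2 libraries had sums of 2878 to 5337 CPM with all 10 markers present, and the microglial marker Sall1 was at 0 in 6 of the 7 BV2 groups.

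In BMDM, the median log2 difference of the 10 genes between co-culture and cells alone was 0.38 in normoxia and 0.32 in hypoxia. The median over all genes, in the fit with the replicate block, was 0.012 and -0.0016. None of the 10 genes passed in edgeR in either. In normoxia 1.64% of all genes passed, 6 of the 10 had an unadjusted p under 0.05 and 0 passed in DESeq2; in hypoxia 7.11% of all genes passed, 4 of 10 had an unadjusted p under 0.05 and 2 passed in DESeq2. Tap1 had the largest value in hypoxia, with 128, 135 and 85.8 CPM against 64.6 and 77.2 CPM alone (0.71 ± 0.23, adjusted p = 0.0878). Of the interferon-induced list 10 of 21 genes rose in normoxia and 0 fell, among them Irf7 (2.29). Without library 3 of both co-culture groups, 1 of the 10 genes passed in each of these comparisons.

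Panobinostat lowered Psmb10 in hypoxic BV2 and no other of the 10 genes passed. Psmb10 stood at 5.23 and 6.34 CPM with the inhibitor against 19.96 and 35.0 CPM with DMSO in hypoxia (-2.24 ± 0.31, adjusted p = 0.00348 by edgeR), and at 50.1 and 67.2 CPM with DMSO in normoxia. All treated libraries lay below all others. The value ran from -2.60 to -1.79 when a library was left out, and passed each time. This was 1 of 10 genes, where 14.6% of all genes passed (7.21% higher, 7.39% lower); with the replicate block it was again 1 of 10, while the genes passing among all went from 1941 to 4025. Psmb7, the standard subunit in the same position, changed by 0.44 ± 0.23 without passing, and Psmb8 and Psmb9 by -0.37 ± 0.22 and -0.13 ± 0.32. The heavy chains did not pass, at 962 and 736 CPM for H2-K1 with panobinostat against 741 and 678 CPM without (0.26 ± 0.27).

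H2-Aa, a class II chain, had no count in the hypoxic DMSO libraries and a mean of 2.74 CPM with panobinostat, and H2-Eb1 and H2-Ob went from 0 to 1.75 and 2.92 CPM. None of these class II genes had a count in the normoxic DMSO libraries either, so they passed the filter on low counts through the panobinostat libraries alone, and no test is read from them. These levels are low beside those of the heavy chains. Tapbpl, a relative of tapasin that edits peptides, fell (-1.78), as did the myeloid regulator Irf8 (-1.07). The myeloid markers summed to 2878 to 3189 CPM with panobinostat and 4008 to 4405 CPM with DMSO in hypoxia, with all 10 present in both; their part in the results was not tested.

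**Figure D4:**
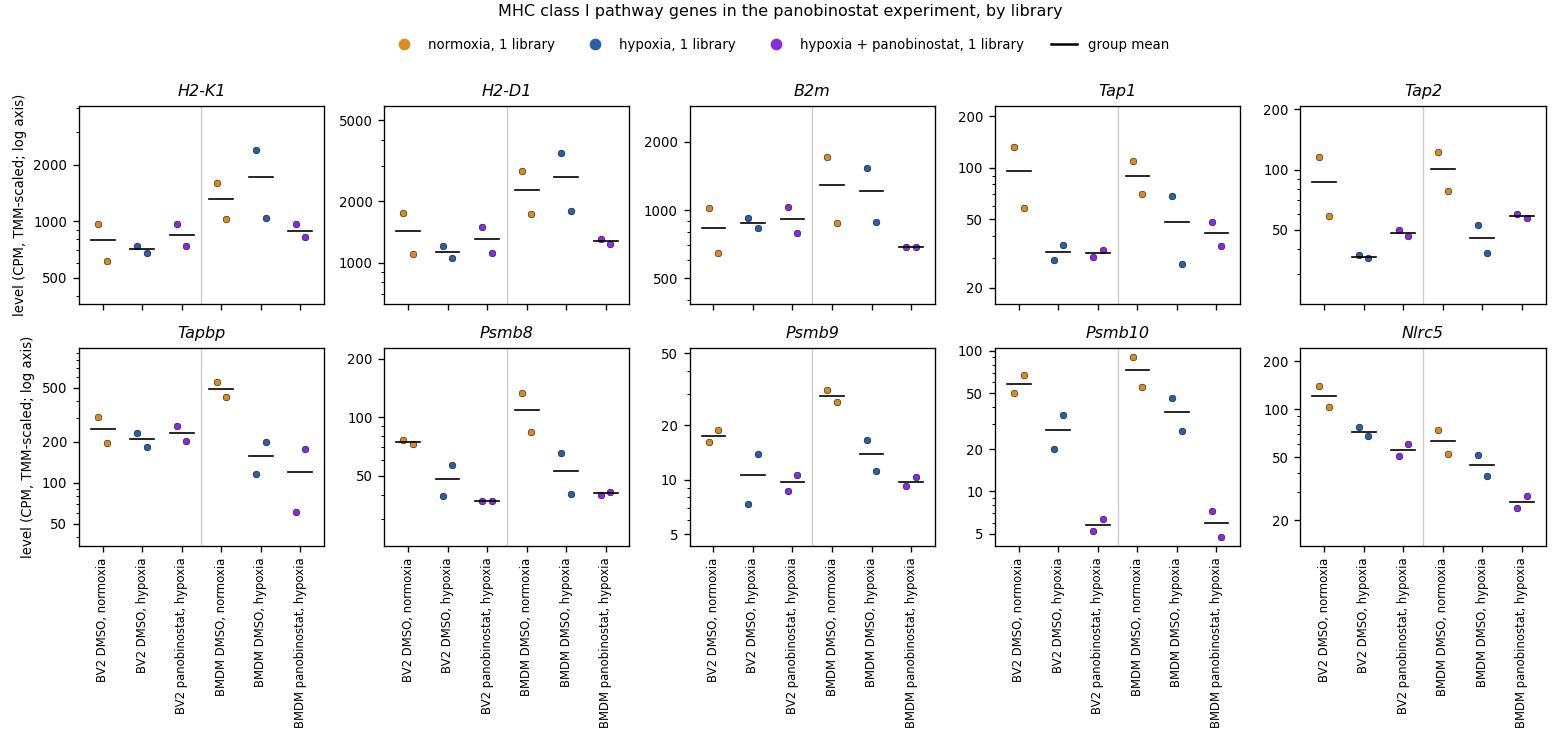
Level of each gene (CPM scaled by TMM within each cell type, log axis) in every library of the panobinostat experiment, by group on the horizontal axis; points are libraries, bars are group means and the grey line parts BV2 from BMDM, whose scales are not shared. Psmb10 stood between 4.72 and 7.25 CPM in the 4 treated libraries and between 19.96 and 90.9 CPM in the 8 others.

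In hypoxic BMDM, Psmb10 had 7.25 and 4.72 CPM with panobinostat against 46.6 and 27.1 CPM with DMSO (-2.62 ± 0.43), without overlap, but the adjusted p was 0.0613 in edgeR; with the replicate block it was -2.60 with an adjusted p of 0.0215. None of the 10 genes and 0% of all genes passed without the block, 2 of 10 had an unadjusted p under 0.05 and 1 passed in DESeq2; with the block 2044 genes passed, 1 of them a member. H2-D1 had 1309 and 1237 CPM with panobinostat against 3467 and 1796 CPM (-1.05 ± 0.47, adjusted p = 0.221), and H2-K1 961 and 821 against 2401 and 1044 CPM (-0.95 ± 0.49, adjusted p = 0.279). The panobinostat effect did not differ between BV2 and BMDM in a way that passed for any member (0 of 10 in edgeR and in DESeq2, 0 with an unadjusted p under 0.05; 0.0251% of all genes passed).

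The BMDM libraries of this experiment expressed all 4 fibroblast markers on the list, Col1a1, Col1a2, Dcn and Pdgfrb, at sums of 19357 to 19747 CPM in normoxia, 2577 to 13317 CPM in hypoxia with DMSO and 8594 to 14052 CPM with panobinostat. In the BMDM of the co-culture experiment the same sum was 60.6 to 546 CPM. The 10 myeloid markers, all present, summed to 6698 to 9007, 2627 to 4672 and 763 to 2161 CPM in these 3 groups, and to 5672 to 10319 CPM in the co-culture experiment. Both sums move with the groups compared in the BMDM panobinostat experiment, and their part in the class I values was not tested. Sums of T, B and NK cell markers were at most 1.96, 0.844 and 0.654 CPM in any library.

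Across the 18 groups, with each gene centred within cell type and experiment, the pathway fell into blocks. The group means of Psmb8 and Psmb9 were correlated at r = 0.97 and those of H2-K1 and H2-D1 at 0.90, while H2-K1 and Psmb8 stood at -0.27. Tap1 and Nlrc5 were correlated at 0.85. Against the mean of the other 9 genes, r was 0.92 for Nlrc5, 0.86 for Psmb9 and 0.83 for Tap1, but 0.01 for H2-K1 and 0.18 for H2-D1. The non-members nearest to the mean of the 10, among 9078 genes ranked, were Slfn8 (0.97), Oas2 (0.95), Xaf1 (0.94), Irf9 (0.93) and Parp14 (0.93). These are descriptions over groups that share conditions and libraries of the same experiment.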

How the data were processed

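The deposited values are whole-number read counts per Ensembl gene, made by the authors and used as deposited. The submitters' processing notes name the build mm10 and Trimmomatic 0.36, STAR 2.6, SAMtools, HTSeq 0.9.1 and deepTools, with Picard 2.17.1 for the BV2 and GL261 table only; their order, the annotation and the use of strand are not given in the sources used here. Libraries were KAPA stranded poly(A) RNA read as 151-base pairs. Library totals ran from 9634700 to 27238933 counts, so 3 counts correspond to 0.110 to 0.311 CPM; such floors cover counting error only. The 22 replicate pairs were not identical and differed beyond sampling noise (chi-square per degree of freedom 6.70 to 155.5).

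The test on counts was quasi-likelihood in edgeR 4.0.16 (limma 3.58.1, R 4.3.3), with TMM scaling, the default filter (minimum count 10, minimum total 15), a mean per group in 1 fit for each cell type and table, and Benjamini-Hochberg adjustment over all genes at 0.05. Differences between cell types came from joint fits. SE is the log2 change divided by the square root of F. Symbols were found for 55141 of 55487 identifiers. Coordinates are those of GENCODE M21 on GRCm38. Scripts were checked on simulated data.

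The members and gene lists were chosen with earlier results of these data known. All 10 members are named in every comparison; from each list the text names genes among the 3 largest passing changes in each direction, and the regulators Irf1 and Rfx5; another regulator the rule names is not reported here. Genes like the members are the 5 with the highest r among genes of at least 10 CPM on average. Partner shares are medians over genes of at least 20 CPM and at least 100-fold higher in the partner grown alone, after adding 0.5 CPM.

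Replicate numbers come from the titles. Deviations of same-numbered libraries from their group means were correlated in every pair of groups within each cell type of the panobinostat experiment. The r was 0.193 to 0.448 in BV2 and 0.325 to 0.620 in BMDM, and was not computed between the cell types. The numbers were therefore taken to pair libraries within a cell type there, and blocked values stand beside results they change. With 2 libraries in a group the deviations mirror each other, so each pair of groups gives a single r. This check is therefore weak and cannot show that the libraries were paired. Alternatives were DESeq2 1.42.0, its size factors, other filters (1 count, mean CPM of 5), the block, fits on the compared groups alone, 1 library left out at a time, and a fit without genes 4-fold or more above the cell in its partner; leaving out library 3 of both BMDM co-culture groups was added after seeing the data.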

Additional observations from a re-analysis of the deposited data

Results flagged for a closer look

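The hypoxia effect differed between BV2 and GL261, both grown alone, for 2 of the 10 genes, by a test of the difference itself (the interaction term of edgeR's quasi-likelihood fit, BV2 minus GL261). Tapbp had a difference of 0.95 on the log2 scale (adjusted p = 0.00942): it rose in BV2 (0.34 ± 0.11) and was lower without passing in GL261 (-0.51 ± 0.23). H2-K1 had a difference of -0.70 (adjusted p = 0.0211), since it rose in both lines but by 0.29 in BV2 and 1.09 in GL261. The median difference over all genes was 0.15, and 0.22 under DESeq2.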

How the results depend on the processing

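Over all values recomputed under the alternatives, 2598 kept their side of the threshold, 99 lost a call, 117 gained one and 0 changed direction with a call. Of 52 calls of single genes, 25 passed under every alternative run: among them Psmb10 in hypoxia in BV2 and GL261 in both cultures, H2-K1 in GL261, Psmb8, Psmb9 and Psmb10 in co-cultured BMDM, and Psmb10 with panobinostat in BV2. H2-K1 in co-cultured GL261 was not tested in the fit without genes higher in BV2, which removed it. Numbers of the 10 genes called that moved by over 1.5 times are given next, and the cause was not tested unless the setting's own construction shows it.

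For hypoxia, BMDM alone had 3 calls, and 5 in DESeq2, 8 with only the groups compared and 5 with the replicate block. BMDM from co-culture had 8, and 3 with only the groups compared. GL261 alone had 3, and 5 both with no filter beyond 1 count and with the block. GL261 from co-culture had 4, and 2 without genes higher in BV2. That setting removed H2-K1, H2-D1, B2m and Nlrc5 themselves, so they could not be called there. BV2 with DMSO had 5, and 3 with only the groups compared. BMDM with DMSO had 0, and 3 in DESeq2, 4 without the filter and 3 with the block. For co-culture, BV2 in normoxia had 0, and 1 in DESeq2, with its size factors, at the mean CPM filter of 5 and without genes higher in GL261, 2 without the filter and 3 with only the groups compared; in hypoxia it had 2, and 1 with the size factors, at the mean CPM filter of 5 and without genes higher in GL261, and 0 with only the groups compared. GL261 in normoxia had 0, and 1 in DESeq2 and with only the groups compared, 3 without the filter and 2 with the block; in hypoxia it had 1, and 3 in DESeq2, without the filter and with the block, and 0 at the mean CPM filter of 5 and with only the groups compared. BMDM in normoxia had 0, and 2 without the filter and 1 with only the groups compared, with the block and without library 3 of both co-culture groups; in hypoxia it had 0, and 2 in DESeq2 and without the filter, and 1 with the block and without library 3 of both groups. Panobinostat in BMDM had 0, and 1 in DESeq2, without the filter and with the block. Between cell types, the level of BV2 against BMDM had 2, and 1 at the mean CPM filter of 5, 4 without the filter and 6 with the block; the hypoxia difference of BV2 and GL261 had 2, and 4 without the filter and 5 with the block, and that of BV2 and BMDM had 0, and 1 without the filter. The BV2 difference between cultures had 0, and 3 without the filter.

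Leaving out 1 library at a time gave 4 to 6 calls in hypoxia in BV2 alone, 5 to 7 in BV2 from co-culture, 2 to 4 and 3 to 6 in GL261, 0 to 2 and 4 to 7 in BMDM, and 2 to 5 in BV2 with DMSO. It gave 0 to 2 for BV2 co-culture in hypoxia, 0 to 1 for GL261 and for BMDM co-culture in hypoxia, 0 to 3 for the BV2 difference between cultures, 1 to 2 for the hypoxia difference of BV2 and GL261, 0 to 2 for the level of BV2 against BMDM, 8 for that of BV2 against GL261, 1 for panobinostat in BV2 and 0 elsewhere. Where this left a group with 1 library, that library was assumed to vary like the other groups. Genes passing among all genes moved as well in most comparisons, so these counts are not a result about the members alone.

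In the co-culture experiments the numbers did not pair libraries by the check (mean r 0.0550 in BV2, 0.243 in GL261 and 0.178 in BMDM); with the replicate block 8 genes were called in hypoxia in BV2 alone, 6 in BV2 from co-culture, 5 in GL261 from co-culture and 7 in BMDM from co-culture. Groups held 2 or 3 libraries. The biological coefficient of variation was 0.381 in the BMDM panobinostat fit and 0.205 in the BV2 panobinostat fit. It was 0.0958 in the BV2 co-culture fit. Precision was lowest in the BMDM panobinostat fit.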
